A study of Mus musculus with 7 samples.

Results

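Transcripts of 10 neuropeptide and neuroendocrine genes were described in sorted thymic epithelium. The genes were a fixed list, Npy, Oxt, Avp, Pomc, Tac1, Nmu, Penk, Resp18, Chgb and Pcp4, and each was measured by 1 probe set. They are 10 of the 19937 genes that the platform annotation names singly. Medullary epithelial cells high in MHC class II were sorted from the thymus of NOD mice, a strain that develops autoimmune diabetes, and their RNA was hybridised to 7 Affymetrix arrays. The reconRAG1KO group (n = 4) came from NOD mice null for RAG1, the recombinase of lymphocytes, and served as the control. The reconSCID group (n = 3) came from NOD mice with the SCID mutation of DNA-dependent protein kinase (DNA-PK), a DNA repair enzyme. All recipients were irradiated with 200 rad as pups of 2 to 4 days, received bone marrow 6 h later, and were analysed after 6 to 8 weeks. The labels name neither the marrow donor nor the number of thymi per sample, and both mutations were present in the whole recipient rather than in the epithelium alone.

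Neuropeptides are made as long precursors, cut at pairs of basic residues inside dense-core granules and secreted by neurons and endocrine cells. Medullary thymic epithelial cells transcribe many such genes of other organs, partly under the regulator Aire, and present the products to developing T cells, so that T cells reactive to them are deleted or become regulatory. Oxytocin, vasopressin and neuropeptide Y are long-known examples of neuroendocrine self-antigens in thymic epithelium. The question addressed was how the levels of these transcripts compared between recipients with defective DNA-PK and control recipients.

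The sequences just upstream of the annotated starts are shown for Tac1, Pcp4, Resp18 and Npy, which had the largest differences between the groups, and for Oxt and Avp, neighbours on chromosome 2. Each line holds the 100 bases before the start in RefSeq (GRCm38.p6), read 5′ to 3′ on the strand of the gene. For Oxt the start used lies inside the gene span given in RefSeq, whereas for the others it lies at the edge of that span. Capitals mark ATAAA, the core of a TATA-like element, within the last 50 bases on the gene strand, and TGACG or CACGTG on either strand.
Tac1, chr6:7554961-7555060, plus strand: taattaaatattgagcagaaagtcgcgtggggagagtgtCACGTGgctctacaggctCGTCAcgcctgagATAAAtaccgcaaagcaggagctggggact
Pcp4, chr16:96467506-96467605, plus strand: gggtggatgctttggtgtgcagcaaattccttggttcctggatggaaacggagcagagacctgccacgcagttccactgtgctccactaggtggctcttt
Resp18, chr1:75278416-75278515, minus strand: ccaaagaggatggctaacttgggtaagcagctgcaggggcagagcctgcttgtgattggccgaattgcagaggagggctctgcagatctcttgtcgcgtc
Npy, chr6:49822610-49822709, plus strand: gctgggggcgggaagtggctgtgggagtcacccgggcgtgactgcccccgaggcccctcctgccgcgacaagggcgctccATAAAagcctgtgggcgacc
Oxt, chr2:130576069-130576168, plus strand: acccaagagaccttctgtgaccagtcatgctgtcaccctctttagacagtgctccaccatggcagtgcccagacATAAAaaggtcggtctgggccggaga
Avp, chr2:130582589-130582688, minus strand: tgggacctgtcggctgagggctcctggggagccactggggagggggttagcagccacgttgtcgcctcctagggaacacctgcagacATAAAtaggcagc
The RefSeq promoter table held 9 of the 10 genes, and Penk had no entry. ATAAA lay within 50 bases of the start in 5 of the 9 (Npy, Oxt, Avp, Tac1 and Pomc), compared with 6.57% of 32851 windows of all genes. This window was chosen after a first search, 40 to 17 bases before the start, had missed Npy and Avp. That first search found ATAAA in 3 of the 9 and in 4.16% of all windows. The wider window was thus fitted to these genes, and the contrast is a description, not a test. TGACG, the short form of the cyclic AMP response element, occurred within 250 bases in Tac1, Nmu and Chgb, and in 17.8% of all windows. The full element TGACGTCA contains TGACG and occurred in Chgb alone of the 9, and in 1.55% of all windows. CACGTG, an E-box, occurred in Avp, Nmu and Tac1, and in 6.02% of all windows. The number of CG dinucleotides in 250 bases ran from 3 in Pcp4 to 26 in Chgb with a median of 15, whereas the median of all windows was 6. The promoters therefore included both CG-poor and CG-rich ones.

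Correlations over all probe sets split the arrays in 2, and the labels name no batch. The smaller array set held reconRAG1KO replicate 4 and reconSCID replicate 2 (r = 0.972), and the larger set held the other 5 arrays (r from 0.976 to 0.990), with r from 0.922 to 0.947 between the sets. Both groups were present in each, so values are also given from a fit blocked by array set, called the blocked fit, and within the sets. Of 16 medullary markers, 15 lay above the median probe set (log2 6.51). Aire had a log2 intensity of 10.90, 10.89, 11.09 and 11.93 in reconRAG1KO and of 10.70, 11.46 and 9.73 in reconSCID. Markers of T cells (11 of 11), dendritic cells and macrophages (14 of 14) and B cells (9 of 11) also lay above it. Xist was high in reconRAG1KO replicate 2 (9.96) and reconSCID replicates 1 (8.02) and 3 (9.61) and lay between 5.11 and 6.22 elsewhere. Sex was in no fit, and its part in the results was not tested.

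All 10 genes had a lower mean in reconSCID, by small amounts, and none passed the test across the array. Tac1 differed most, at 26.0% lower, followed by Pcp4 at 21.4% and Resp18 at 18.6%, whereas Oxt differed by 3.0% and Nmu by 0.53%. By limma, 0 of 34760 probe sets (0%) had an adjusted p under 0.05, while 394 were lower and 765 higher at an unadjusted p under 0.05. The adjusted p was 1 for each of the 10 genes. The median log2 difference, reconSCID minus reconRAG1KO, was -0.19 over the 10 genes and -0.01 over all 19937 named genes. A difference below 0 was found in 10 of 10, and in 52.4% of all named genes. One gene, Tac1, was lower at an unadjusted p under 0.05, against 1.19% of all named genes. In the blocked fit there were 3, Tac1, Npy and Avp, against 6.75%, and in the larger set alone 2, Resp18 and Chgb, against 7.78%. The median was -0.20 in the blocked fit and in the larger set, and -0.05 in the smaller set, where 7 of 10 genes were lower against 51.8% of all named genes. In the unblocked fit the median was -0.10 without reconSCID replicate 3 or without reconRAG1KO replicate 4. Without the latter the smaller set is in reconSCID alone, so the unblocked fit then mixes group with array set. In the blocked fit the median was -0.14 without reconSCID replicate 3 and -0.20 without reconRAG1KO replicate 4. Fewer cells making a transcript and less transcript per cell cannot be told apart in sorted bulk RNA.

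**Figure D1:**
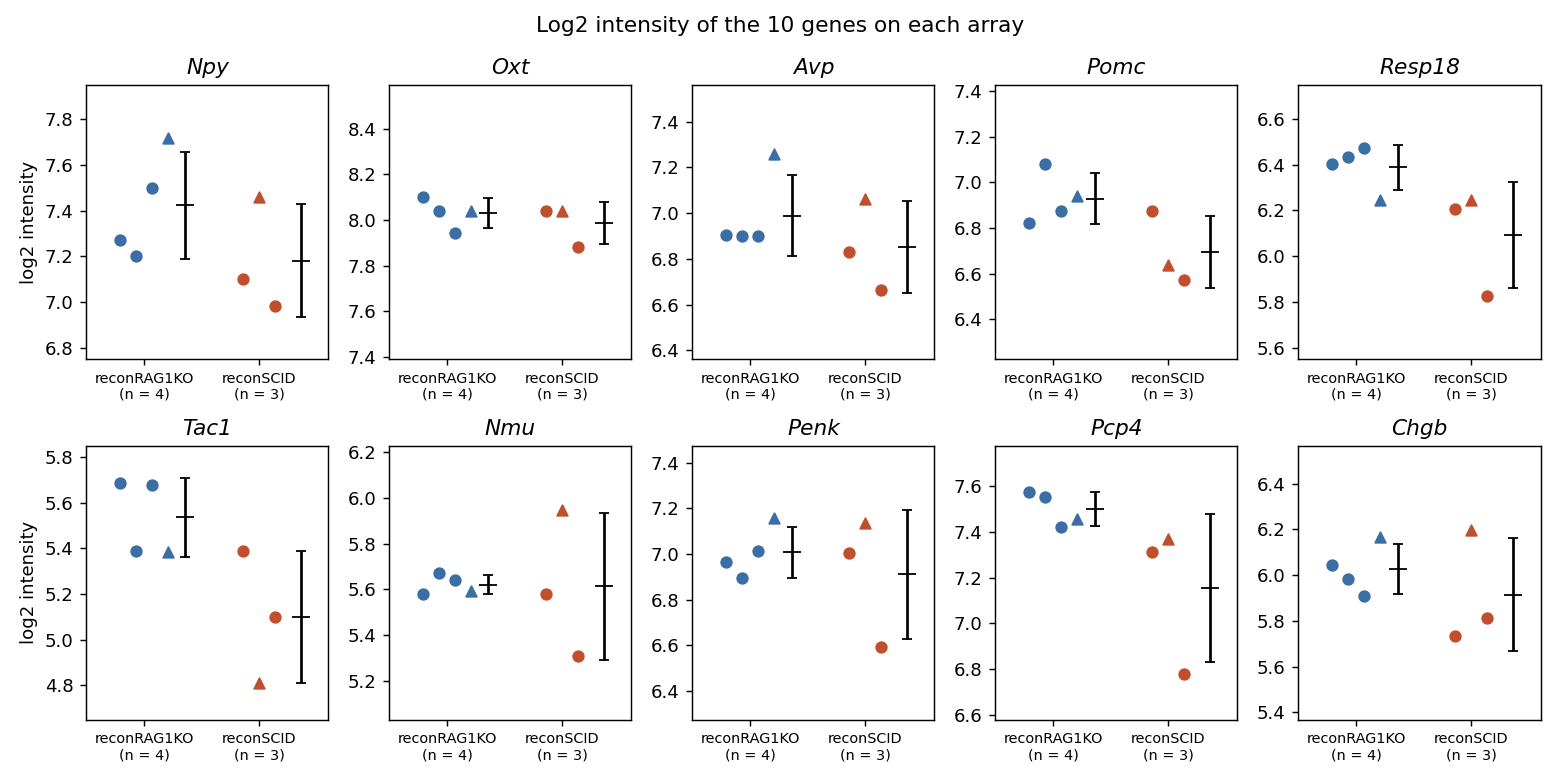
Log2 intensity of each of the 10 genes on each array, with every panel spanning the same 1.2 log2 units. Circles are arrays of the larger set, triangles the 2 arrays of the smaller set, and bars the mean ± SD of each group. ReconSCID replicate 3, the rightmost circle of its group, is the lowest of the 7 arrays in 8 of 10 genes.

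Among the peptide precursors, Tac1 encodes substance P and neurokinin A, the tachykinins of sensory nerves and gut. It measured 5.69, 5.39, 5.68 and 5.38 (log2 intensity) in reconRAG1KO and 5.39, 4.81 and 5.10 in reconSCID. The groups overlapped through reconSCID replicate 1, which held the same deposited value as reconRAG1KO replicate 2 and lay just above reconRAG1KO replicate 4. The log2 difference of Tac1 was -0.43 ± 0.16 (SE), with a 95% interval from -0.83 to -0.04, an unadjusted limma p of 0.03448 and an exact two-sided permutation p of 0.08571 over 35 splits. The blocked fit gave -0.41 ± 0.12 (SE), at limma p values of 0.01469 before adjustment and 0.3039 after it. Leaving out single arrays put the unadjusted value of the blocked fit between 0.005481 and 0.073. Tac1 differed by -0.34 in the larger set and -0.57 in the smaller set. Leaving out 1 array at a time moved the unblocked difference between -0.58 and -0.29, and the blocked one between -0.52 and -0.34. Tac1 lay below the median probe set, as did Nmu, Resp18 and Chgb.

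Npy encodes neuropeptide Y, a peptide of sympathetic nerves and of hypothalamic feeding circuits. It measured 7.27, 7.20, 7.498 and 7.72 in reconRAG1KO and 7.10, 7.46 and 6.98 in reconSCID. Both arrays of the smaller set were high for their group, and the groups overlapped. Npy differed by -0.24 on the log2 scale (95% interval -0.65 to 0.17). The blocked fit gave -0.28 (interval -0.49 to -0.06), at an unadjusted limma p of 0.0217 and an adjusted p of 0.3307. The difference was of like size in both sets, -0.28 in the larger and -0.26 in the smaller. The unblocked difference was -0.14 without reconSCID replicate 3 or reconRAG1KO replicate 4, and -0.38 without reconSCID replicate 2. The blocked difference ran from -0.31 to -0.22 when 1 array was left out. With 1 array left out, the unadjusted limma p of the blocked fit ran from 0.0193 to 0.07825.

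Oxt and Avp encode oxytocin and vasopressin, the paired hormones of the posterior pituitary, each made together with a neurophysin carrier. Oxt measured 8.10, 8.04, 7.94 and 8.04 in reconRAG1KO and 8.04, 8.04 and 7.88 in reconSCID. Only 4 distinct values stood among the 7 arrays for Oxt, and reconSCID replicate 3 alone lay outside the control range. The log2 difference of Oxt was -0.04 (interval -0.25 to 0.16), and with 1 array left out it ran from -0.072 to 0.0090. Avp measured 6.90, 6.90, 6.90 and 7.26 in reconRAG1KO and 6.83, 7.06 and 6.67 in reconSCID. Within each array set the reconSCID arrays were the lower ones for Avp. The log2 difference of Avp was -0.14, with an interval from -0.48 to 0.20. The blocked fit gave -0.17 (interval -0.32 to -0.02), at an unadjusted limma p of 0.036 and an adjusted p of 0.3729. Single arrays moved Avp in the unblocked fit. Its unblocked difference was -0.044 without reconSCID replicate 3, -0.048 without reconRAG1KO replicate 4 and -0.24 without reconSCID replicate 2. Leaving out either of the last 2 leaves the smaller set in a single group, so that fit then mixes group with array set. The blocked difference of Avp was -0.15 without either of them, and ran from -0.22 to -0.12 over all arrays left out in turn. The unadjusted limma p of the blocked fit was 0.1055 without reconSCID replicate 3, between 0.06779 and 0.07502 without any 1 control or reconSCID replicate 2, and 0.01409 without reconSCID replicate 1. The 2 genes lie next to each other, and whether their differences were unequal was not tested.

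Pomc and Penk are the precursors of opioid peptides. Pomc, pro-opiomelanocortin, yields corticotropin, melanocortins and beta-endorphin. It measured 6.82, 7.08, 6.87 and 6.94 in reconRAG1KO and 6.87, 6.64 and 6.57 in reconSCID. Replicates 2 and 3 of reconSCID lay below every control, and replicate 1 held the same deposited value as reconRAG1KO replicate 3. The log2 difference of Pomc was -0.23, at a 95% interval of -0.50 to 0.03 and an unadjusted limma p of 0.0773. It was -0.20 in the larger set and -0.30 in the smaller. Penk encodes proenkephalin, the source of Met- and Leu-enkephalin. It measured 6.97, 6.89, 7.01 and 7.16 in reconRAG1KO and 7.0035, 7.14 and 6.59 in reconSCID. Only reconSCID replicate 3 lay outside the control range for Penk. Penk differed by -0.10 (interval -0.45 to 0.26). Its unblocked difference was 0.063 without that replicate, -0.047 without reconRAG1KO replicate 4 and -0.21 without reconSCID replicate 2. In the blocked fit the difference of Penk was 0.020 without reconSCID replicate 3 and -0.16 without either array of the smaller set.

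Nmu encodes neuromedin U, a peptide of gut and brain that acts on smooth muscle and on immune cells. It measured 5.58, 5.67, 5.64 and 5.59 in reconRAG1KO and 5.58, 5.95 and 5.31 in reconSCID. The controls spanned less than 0.1 log2 units, and reconSCID replicates 2 and 3 lay on opposite sides of them. Nmu differed by -0.0076 (interval -0.37 to 0.36). The difference was -0.19 in the larger set and 0.36 in the smaller, and 0.14 without reconSCID replicate 3. The sign for Nmu thus depended on which arrays were used.

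Resp18 and Chgb encode proteins of the secretory granule. Resp18, regulated endocrine-specific protein 18, is found in the secretory pathway of neuroendocrine cells. It measured 6.40, 6.44, 6.47 and 6.25 in reconRAG1KO and 6.20, 6.25 and 5.83 in reconSCID. The groups did not overlap, but the highest reconSCID array (6.2456) and the lowest control (6.2465), the 2 arrays of the smaller set, were nearly equal. The log2 difference of Resp18 was -0.30 ± 0.13 (SE), with an interval from -0.61 to 0.01, an unadjusted limma p of 0.05703 and an exact two-sided permutation p of 0.05714. It was -0.42 in the larger set, where its unadjusted limma p was 0.02541, and -0.00094 in the smaller set, and -0.16 without reconSCID replicate 3. Chgb encodes chromogranin B, a granin that helps to form dense-core granules. It measured 6.05, 5.98, 5.91 and 6.17 in reconRAG1KO and 5.74, 6.20 and 5.81 in reconSCID. In the larger set both reconSCID arrays lay below the 3 controls, at a difference of -0.21 and an unadjusted limma p of 0.02552. In the smaller set the difference of Chgb was 0.03, and over all 7 arrays it was -0.11, with an interval from -0.44 to 0.21. Over all 7 the unadjusted limma p was 0.4432 and the exact two-sided permutation p 0.4286. The unblocked difference was -0.25 without reconSCID replicate 2, at an unadjusted limma p of 0.04306. It was -0.022 without replicate 1, -0.060 without replicate 3 and -0.065 without reconRAG1KO replicate 4. The blocked difference was -0.21 without either array of the smaller set. It was -0.089 without reconSCID replicate 1 and -0.13 without replicate 3.

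Pcp4, Purkinje cell protein 4, is a small regulator of calmodulin in neurons and is not a granule protein. It measured 7.58, 7.55, 7.42 and 7.45 in reconRAG1KO and 7.31, 7.37 and 6.78 in reconSCID. Every reconSCID array lay below every control. The log2 difference of Pcp4 was -0.35 ± 0.16 (SE), at a 95% interval of -0.72 to 0.03 and an unadjusted limma p of 0.06412. An exact two-sided permutation test over the 35 splits gave 0.02857, its smallest possible p. Replicate 3 of reconSCID carried much of it, and the difference was -0.16 without it. It was -0.47 in the larger set and -0.09 in the smaller. Pcp4 and Resp18 were the 2 of 10 genes whose groups did not overlap with reconSCID lower, against 1.54% of all named genes. In the larger set alone 5 of 10 did not overlap, Npy, Avp, Resp18, Pcp4 and Chgb, against 18.1%.

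**Figure D2:**
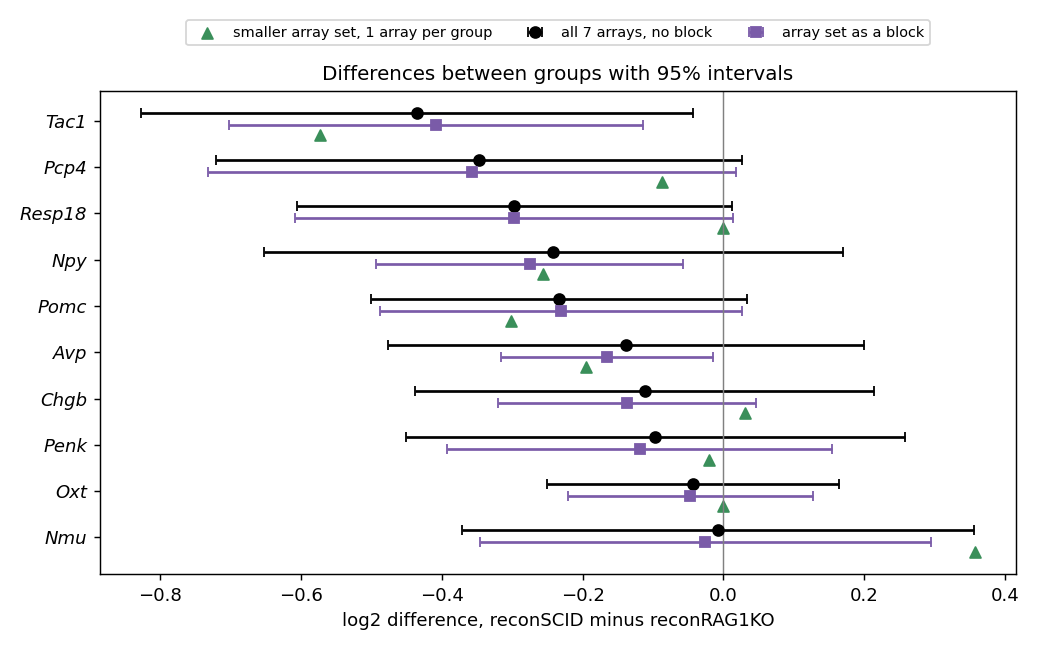
Log2 difference, reconSCID minus reconRAG1KO, for each of the 10 genes in order of size. Circles and squares are limma estimates with 95% intervals, without and with the block for array set, and triangles are the difference between the 2 arrays of the smaller set, with no interval. Only the interval of Tac1 lies below 0 without the block, and those of Tac1, Npy and Avp do with it.

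The 10 genes differed in how they followed the array sets. The smaller set was higher than the larger for Npy (0.38 log2 units), Avp (0.32), Chgb (0.29), Penk (0.25) and Nmu (0.21), lower for Tac1 (-0.35), and within 0.1 for Oxt, Pomc, Resp18 and Pcp4. The median over all named genes was 0.12. The sets were defined from these arrays, so these are descriptions with no test. By sample, the median deviation of the 10 genes from their control means was -0.15 in reconSCID replicate 1, 0.02 in replicate 2 and -0.39 in replicate 3, and it ran from -0.03 to 0.01 in the controls. All 10 genes were below the control mean in replicate 3, 9 in replicate 1 and 4 in replicate 2. Replicate 3 was the lowest of the 7 arrays for 8 of 10 genes, against 23.7% of all named genes. Replicate 2 lay above the control mean for 6 of 10 genes. Tac1 was lowest there, and Pomc, Pcp4 and, by a very small margin, Resp18 also lay below every control.

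Other neuropeptide precursors also tended to lower means in reconSCID. Above the median probe set lay 19 of the 38 measured. Of the 38, 27 had a difference below 0, against 52.4% of all named genes, and 11 did not, with a median of -0.09. Among the 11, Hcrt held the same value on all 7 arrays, so it had no difference. At an unadjusted p under 0.05, 4 were lower and 0 higher, against 1.19% and 0.863% of all named genes, and 0 passed adjustment by limma. Sst, which encodes somatostatin, had a log2 difference of -0.51 ± 0.17 (SE). Tac2, the neurokinin B gene and a relative of Tac1, had a difference of -0.50 ± 0.16 (SE). For Nts, the neurotensin gene, it was -0.69 ± 0.27 (SE), and for Grp, the gene of gastrin-releasing peptide, it was -0.37 ± 0.14 (SE). In the smaller set Sst, Tac2 and Grp differed by -0.92, -0.66 and -0.50, and Nts by 0.24. The list median was -0.11 in the blocked fit, -0.11 in the larger set and 0.00 in the smaller.

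Genes of dense-core granules and peptide processing had differences below 0 in 14 of 16, against 52.4% of all named genes, with a median of -0.13. One, Chga, was lower at an unadjusted p under 0.05, against 1.19% of all named genes. The blocked fit had 6, against 6.75% of all named genes, and 0 passed adjustment by limma in either fit. Chga encodes chromogranin A, the granin partner of Chgb, and its log2 intensity averaged 8.48 ± 0.23 (SD, n = 4) in the controls. In reconSCID it averaged 7.97 ± 0.34 (SD, n = 3), or -0.51 ± 0.20 (SE) relative to them. Cadps, which primes dense-core granules for release, differed by -0.50 ± 0.24 (SE) and the granule calcium sensor gene Syt7 by -0.37 ± 0.23 (SE). Pcsk1, the gene of a convertase that cuts peptide precursors, differed by -0.20 ± 0.16 (SE). Chga, Cadps and Syt7 were lower within the smaller set too, by -0.65, -0.36 and -0.20.

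The receptors of these peptides were divided in direction. Of 22 receptor genes 12 had a difference below 0 and 10 above it, the median was 0.00, and 0 had an unadjusted p under 0.05 by limma. Only 1 of the 22 lay above the median probe set. The receptor genes with the smallest p were those of melanocortin receptor 4 (Mc4r, 0.24 ± 0.16, SE), the oxytocin receptor (Oxtr, 0.17 ± 0.14, SE), the neurokinin B receptor (Tacr3, -0.19 ± 0.16, SE) and the renal vasopressin receptor (Avpr2, 0.14 ± 0.11, SE). Of 6 measured relatives of Pcp4 and calmodulin genes 4 were below 0, with 0 at an unadjusted p under 0.05. Pcp4l1, the gene most like Pcp4, differed by -0.28 ± 0.14 (SE), Calm3 by -0.22, Gap43 by -0.08 and Pcp2 by 0.05. A list of regulators of neuroendocrine, tuft cell and other lineages was below 0 in 11 of 13, against 52.4% of all named genes. Its median was -0.05, with 0 at an unadjusted limma p under 0.05. Insm1, the neuroendocrine zinc finger regulator, differed by -0.36 ± 0.19 (SE), the tuft cell regulator Pou2f3 by -0.26, the islet regulator Rfx6 by -0.15 and Spib by -0.16.

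**Figure D3:**
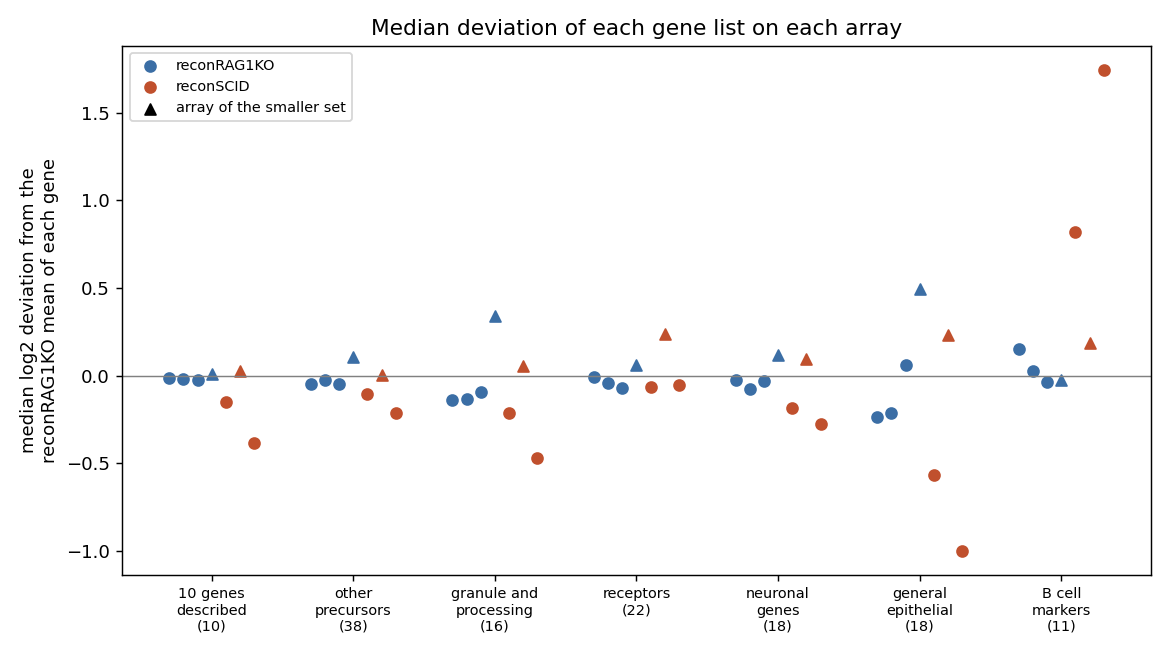
Median log2 deviation of each gene list from the reconRAG1KO mean of its genes, 1 point per array, with the number of genes measured in brackets. Blue is reconRAG1KO, orange is reconSCID (replicates 1, 2 and 3 from left to right), and triangles are the smaller array set. ReconSCID replicate 3 is at -0.39 for the 10 genes, -0.998 for general epithelial genes and 1.74 for B cell markers.

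General epithelial genes had lower means in reconSCID, as the 10 genes did, while the direction of the markers of other cells differed from list to list. Of all named genes 52.4% had a difference below 0. General epithelial genes had differences below 0 in 18 of 18, with a median of -0.44. At an unadjusted limma p under 0.05, 1 was lower against 1.19% of all named genes, or 12 in the blocked fit against 6.75%. The mean log2 intensity of these epithelial genes ran from 8.80 to 9.55 in reconRAG1KO and from 8.08 to 9.35 in reconSCID. Their median deviation was -0.998 in reconSCID replicate 3, -0.57 in replicate 1 and 0.23 in replicate 2. B cell markers were higher in 11 of 11, with a mean log2 intensity of 6.60 to 6.84 in reconRAG1KO and 6.84 to 8.57 in reconSCID. Neutrophil markers were lower in 11 of 11, with means of 6.75 to 9.003 and 6.44 to 7.09. At an unadjusted limma p under 0.05, 5 B cell markers were higher, against 0.863% of all named genes. At that level 2 neutrophil markers were lower, against 1.19%, or 4 in the blocked fit against 6.75%. Among the other lists, medullary markers were below 0 in 15 of 16 (median -0.40), cortical epithelial markers in 7 of 10 (-0.27) and T cell markers in 6 of 11 (-0.01). Markers of dendritic cells and macrophages were above 0 in 10 of 14 (median 0.16) and those of endothelium and fibroblasts in 10 of 13 (0.23). No value in this intensity table was below 1, so a listed value alone does not show that a cell type was present. The part of these cells in the differences of the 10 genes was not tested. Genes that define neurons were below 0 in 13 of 18, against the 52.4% of all named genes. Their median was -0.12, with 0 at an unadjusted limma p under 0.05. Prph, the peripherin gene of peripheral nerve fibres, differed by -0.27 ± 0.12 (SE), the neurofilament gene Nefl by -0.30 and the synaptotagmin gene Syt1 by -0.43, while Dbh, the noradrenaline enzyme of sympathetic nerves, differed by -0.14. Of 7 glial genes 4 were below 0, with a median of -0.05. Erbb3 differed by -0.48, S100b by -0.07, Sox10 by -0.17 and Pmp22 by 0.37.

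The nearest measured protein-coding genes on either side of the 10 on their chromosomes were divided in direction. Genes without a probe set of 1 symbol were passed over. The gaps ran from 1911 bases, for Efr3b beside Pomc, to 515400 bases, for Sdhaf3 beside Tac1. Of 18 such neighbours, Oxt and Avp left out, 8 had a difference below 0, with a median of 0.02, and 0 had an unadjusted p under 0.05 by limma in either direction. Ptprn, beside Resp18 and itself a granule protein and an autoantigen of type 1 diabetes, differed by -0.08, and Dnpep on the other side by -0.32. Dnmt3a and Efr3b, on either side of Pomc, differed by 0.09 and 0.08, and Dscam, next to Pcp4, by 0.03. No test of members against neighbours was made.

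The 3 genes that varied most over the arrays were Tac1 (SD 0.31), Pcp4 (0.27) and Npy (0.25). Among 4894 genes with an SD of at least 0.3, the profile most like that of Tac1 was that of the antimicrobial lectin gene Reg3g, with a Pearson r of 0.99 over 7 arrays and 0.98 within the 5 of the larger set. Tbc1d7 and Hadh followed at 0.98 each. For Pcp4 these were Asprv1 (0.96), Tnn (0.96) and Krt77 (0.94), of which Asprv1 and Krt77 are genes of the epidermis. For Npy they were Il7 (0.99), which encodes a thymic growth factor of lymphocytes, Msi1 (0.99) and Armh4 (0.99). With so many genes and 7 arrays in 2 sets, correlations of this size are descriptions of these arrays.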

How the data were processed

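Per the labels' protocols, total RNA (6 µg) of sorted cells was made into biotinylated cRNA and hybridised to Affymetrix arrays. The deposited table gives the intensity of each probe set, on a linear scale, which the authors had summarised and brought to nearly equal levels (array medians 88.6 to 96.3). The methods of summary and normalization are not given in the sources used here. Of 34760 probe sets 21640 had 1 gene symbol, and for each of 19937 genes the one with the highest mean was used. Values were taken to log2 without a pseudocount, as none was below 1. In 46.2% of probe sets, and in 4 of the 10 genes, at least 2 arrays held the same value, which can make the spread look smaller.

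The limma package (3.58.1, in R 4.3.3) was used to fit the group difference of every probe set (lmFit, eBayes). Tests were two-sided, p-values were adjusted by Benjamini-Hochberg over all probe sets at a threshold of 0.05, and intervals are 95%. Single genes also had an exact permutation test over all 35 splits. For the genes whose permutation p is not given above, it was 0.1429 for Pomc, 0.6 for Oxt and for Penk, and 0.9143 for Nmu. The number of arrays limits the precision, and 6 of the 10 genes lay above the median probe set. The labels call the samples biological replicates. The array sets came from average-linkage clustering of correlations. The test was also run on simulated data with no array sets and with planted changes larger than those of the 10 genes. That run therefore does not bear on differences as small as these.

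The genes, lists, tests and alternatives were chosen with earlier results of these data known, and the promoter motifs with the sequences in view. ATAAA was first searched 40 to 17 bases before the start, where 3 of the 9 genes and 4.16% of all windows held it, and the window was widened to 50 bases after that search missed Npy and Avp. Named are the 10 genes, up to 4 genes with the smallest p in each list described, the nearest named neighbours, and the 3 genes most correlated with the 3 most variable members. Neither the annotation nor the array values name a genome build, so promoter coordinates alone are given, from RefSeq.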

Additional observations from a re-analysis of the deposited data

Results flagged for a closer look

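Avp in reconRAG1KO replicate 4 stood far from the other controls. Its log2 intensity was 7.26, while the other 3 controls lay at 6.90 within 0.01 of each other. This array belongs to the smaller array set, and the reconSCID array of that set had the highest Avp value of its group, 7.06. The check for such samples was made in reconRAG1KO alone, for 10 genes, of which 1 was picked out, and chance picks out about 1 in 20.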

How the results depend on the processing

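The median of the 10 genes stayed below 0 in every setting tried. It was -0.054 in the smaller array set, where 7 genes were lower, and between -0.25 and -0.10 with 1 array left out. In the blocked fit with 1 array left out, a setting added after seeing the data, it was between -0.27 and -0.14. Leaving out 1 array left 7 to 10 genes lower, blocked or not, and the 7 came without reconSCID replicate 3. The low-value filter and the filter on tied values each kept 6 genes, all 6 lower. The number of genes at an unadjusted p under 0.05 was 1 in the fit reported. It was 0 after centring on array medians and under either filter, 2 in the larger set, 2 with all probe sets of a gene averaged, 3 in the fit with array set as a block and 4 with array weights. It ran from 0 to 3 with 1 array left out, and from 0 to 5 with the block as well. Array weights were 4.79, 0.12 and 0.80 for reconSCID replicates 1, 2 and 3, and 57 probe sets passed adjustment there, none of them the 10 genes. In the other settings that tested all probe sets or a filtered part of them, 0 passed. Of 252 values of single genes, 11 changed sign. In the smaller set Nmu was at 0.36, Chgb at 0.031 and Oxt at 0. With 1 array left out Nmu ran from -0.18 to 0.14, Oxt from -0.072 to 0.0090 and Penk from -0.21 to 0.063. In the blocked fit these ranges were -0.19 to 0.11 (with 0.0087 without reconRAG1KO replicate 2), -0.087 to 0.0072 and -0.23 to 0.020. The cause of these changes was not tested. With the replicate number as a block the median was -0.10 and 1 gene had an unadjusted p under 0.05. Deviations of same-numbered samples correlated at 0.47, -0.51 and 0.31, and not every sample correlated best with its own number, so the numbers were not taken to pair the samples. The table used gives no background level, so the limit set by signal over background was not assessed.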
